A study of Danio rerio with 10 samples.

Results

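The AP-1 family of transcription factor genes was examined in sorted cells of the zebrafish pituitary. Members were all genes of the deposited table whose zebrafish name is jun, junb, jund, fos, fosl or batf, with or without copy letters or numbers, and atf3. This gave 11 of 14781 genes: jun, junba, junbb, jund, fosab, fosb, fosl1a, fosl2, atf3, batf and batf3. The samples were 5 AMCA-positive and 5 AMCA-negative RNA libraries from hypophyses of adult male zebrafish (Danio rerio) of the TL strain, 12 months old, with no transgene or mutation named. All fish had received 10 µL of a 4.6 mM solution of β-Ala-Lys-Nε-AMCA, a dipeptide that carries the blue dye aminomethylcoumarin. Pituitaries were removed 3 hours later, pooled as 5 pools of 7, and dissociated with Liberase and trypsin before cell sorting. AMCA-positive cells, which the labels call pituicytes (the astroglia of the neurohypophysis), lay inside the dye gate, and AMCA-negative cells, which the labels call non-pituicytes, lay outside it. In both groups, replicates 1 and 2 were on plate 1 and the other 3 libraries on plate 2. Sorting was recorded as 2 experiments, and which library came from which was not used here.

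AP-1 is a dimer of proteins with a basic DNA-contact region and a leucine zipper. Jun proteins pair with each other or with Fos proteins, while Fos proteins need a Jun partner, and the choice of partner changes how strongly the dimer activates its targets. Most of the genes are immediate early genes: growth factors, calcium entry, stress and the dissociation of tissue raise their transcription within minutes without new protein synthesis, and the transcripts are short-lived. In mammals, Jun is a strong activator, JunB a weaker one that can restrain Jun, and JunD is present in most resting cells.

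Totals ran from 5068078 to 5919478 counts in AMCA-positive libraries and from 4250948 to 6068781 in AMCA-negative libraries, with 11308 to 11817 genes detected per AMCA-positive and 7079 to 9056 per AMCA-negative library. Among AMCA-negative libraries, replicate 1 had the fewest counts, and replicate 3 had the fewest genes and the largest share of red cell counts. The astroglial filament gene gfap was at 2.42 to 9.0 CPM (counts scaled to a common library total, corrected for composition) in AMCA-positive libraries and at 0 in 4 of 5 AMCA-negative libraries. AMCA-positive libraries also held markers of leukocytes, at 1.52% to 4.12% of counts against 0.121% to 0.429% in AMCA-negative libraries. Epithelial markers took 0.267% to 0.540% of AMCA-positive and 0.00966% to 0.0574% of AMCA-negative counts, and markers of mural cells and fibroblasts took 0.137% to 0.221% of AMCA-positive and 0.00234% to 0.0420% of AMCA-negative counts. Red cell markers took 0.0544% to 0.152% of AMCA-positive counts, against 24.1% to 43.6% of AMCA-negative counts. Endocrine markers took 1.03% to 3.61% of AMCA-positive and 0.210% to 4.58% of AMCA-negative counts. Among them, the corticotrope and melanotrope hormone gene pomca was at 2961 to 22505 CPM in AMCA-positive libraries against 2.64 to 47.6 CPM in AMCA-negative ones. The hormone gene prl was at 286 to 3122 CPM in AMCA-positive libraries. In AMCA-negative replicates 1 to 5 it was at 17171, 31866, 277, 23.3 and 2.20 CPM, so the groups overlapped. In sorted pools such as these, a larger number of cells that express a gene and more RNA per cell cannot be told apart.

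AP-1 transcripts made up a much larger part of the counts of AMCA-positive libraries. The 11 genes together took 3.18%, 2.27%, 2.77%, 2.68% and 2.94% of all counts in AMCA-positive replicates 1 to 5, and 0.231%, 0.497%, 0.108%, 0.582% and 0.363% in AMCA-negative replicates 1 to 5. The groups did not overlap, and the AMCA-negative libraries were the more uneven. On the CPM scale the sum was 23122 ± 2390 in AMCA-positive libraries against 4103 ± 2004 in AMCA-negative ones (SD, n = 5 each), a ratio of means of 5.64. The ratio was 5.46 within plate 1 and 5.76 within plate 2. It was 7.78 for the share of all counts, and 5.63 when red cell and endocrine marker genes were left out of the total. Summed markers of astroglia, leukocytes, epithelium, mural cells and fibroblasts, and the endocrine gene pomca, were higher in the same libraries. Summed endocrine markers, and the hormone gene prl, overlapped between the groups. The part of all these genes in the AP-1 levels was not tested.

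By gene, 8 of the 11 members were higher in AMCA-positive libraries, none was lower, 2 did not pass the test and 1 had too few counts to be tested (quasi-likelihood test of edgeR that allows for plate; threshold 0.05 after Benjamini-Hochberg adjustment). Of all 10468 genes tested, 16.2% were called higher and 6.56% lower. In the same 8 members the lowest AMCA-positive value exceeded the highest AMCA-negative value, as it did for 18.7% of all genes tested. The median log2 fold change was 2.45 over the 10 members tested and 0.69 over all genes tested. With plate 1 alone (2 libraries a group) no member passed (edgeR), though 5 had an unadjusted p under 0.05. By the adjusted p of edgeR, 5 members passed with plate 2 alone and 7 without AMCA-negative replicates 1 and 3. In the authors' deposited table, the same 8 members have an adjusted p under 0.05.

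**Figure D1:**
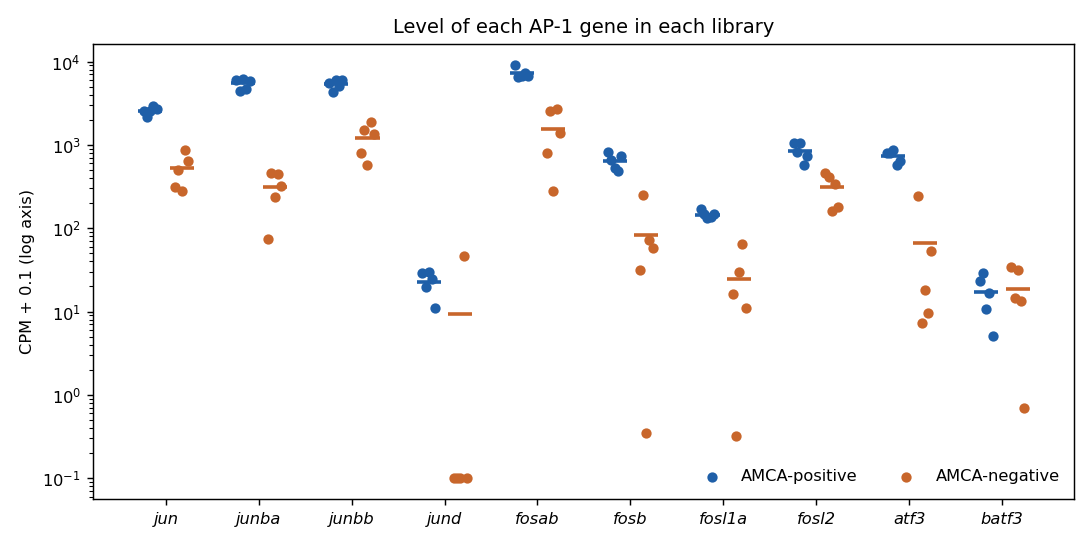
Level of 10 AP-1 genes in each library as CPM + 0.1 on a log axis; points are libraries and bars group means, with AMCA-positive in blue on the left and AMCA-negative in orange on the right of each pair. The 5 AMCA-positive points lie close together for most genes, the AMCA-negative points spread over a wider range, and 4 AMCA-negative libraries have no jund count.

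Among the Jun genes, jun encodes the founding member and main activating partner of the family. It had 2564, 2150.1, 2522, 2913 and 2728 CPM in AMCA-positive replicates 1 to 5, and 310.2, 497, 282, 879 and 638 CPM in AMCA-negative replicates 1 to 5. The lowest AMCA-positive library was above the highest AMCA-negative one. The log2 fold change of jun was 2.33 ± 0.29 (± SE over 5 libraries a group; adjusted p from edgeR = 0.000340), or 5.02-fold.

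The genes junba and junbb are the zebrafish copies of mammalian Junb. Levels of junba were 6059.5, 4472, 6257, 4725 and 5825 CPM in AMCA-positive replicates 1 to 5, and 73.8, 465, 236, 447 and 324 CPM in AMCA-negative replicates 1 to 5. In the main edgeR fit, which allows for plate, this was the largest difference of the tested members. The log2 fold change was 4.15 ± 0.44 (± SE over 5 libraries a group; adjusted p from edgeR = 0.000102), or 17.8-fold, and 17.2% of all genes tested had a larger one. The lead of junba over atf3 held in most settings but not in all. Without AMCA-negative replicate 1 the log2 fold change was 3.89 for junba and 5.22 for atf3. Without AMCA-negative replicates 1 and 3 it was 3.63 for junba and 5.03 for atf3. By limma-voom with quality weights it was 4.22 for junba and 4.87 for atf3, and with plate 2 alone (edgeR) 4.07 and 4.68. The values lay close without AMCA-positive replicate 1 (4.06 for junba, 4.15 for atf3) and without AMCA-negative replicate 5 (4.15 and 4.22). In an edgeR fit that took neighbouring wells as a block the log2 fold change was 4.35 for junba and 4.81 for atf3. In that fit it was 7.77 for jund, which did not pass the test. By limma-voom it was 5.65 for jund, which passed (limma-voom adjusted p = 0.0157). For junbb the levels were 5502, 4317, 6049, 5041 and 5933 CPM in AMCA-positive replicates 1 to 5, and 800.1, 1493, 569.8, 1886 and 1351 CPM in AMCA-negative replicates 1 to 5. Both copies were thus separated between the groups, junba by a wide gap and junbb by a narrower one. The log2 fold change of junbb was 2.14 ± 0.30 (± SE over 5 libraries a group; adjusted p from edgeR = 0.000722), or 4.39-fold.

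The gene jund, which in mammals is the Jun gene least dependent on stimulation, had few counts. It was at 29.2, 19.5, 29.7, 24.6 and 11.0 CPM in AMCA-positive replicates 1 to 5, and at 45.9 CPM in AMCA-negative replicate 4. The other 4 AMCA-negative libraries had no jund count, which allows levels of up to 0.599 to 0.845 CPM by library (3 counts). One AMCA-negative library therefore held more jund than any AMCA-positive library, and the log2 fold change of 2.58 ± 2.45 did not pass (± SE over 5 libraries a group; adjusted p from edgeR = 0.535). Without AMCA-negative replicate 4, jund passed with a log2 fold change of 9.93 (edgeR adjusted p = 0.00617), a fit against a group without counts.

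Of the Fos genes, fosab is a zebrafish copy of mammalian Fos, the partner that forms the classical Fos-Jun dimer. It had 9178, 6562, 6776, 7194 and 6751 CPM in AMCA-positive replicates 1 to 5, and 789, 2566, 278, 2690.4 and 1391 CPM in AMCA-negative replicates 1 to 5. The AMCA-negative libraries ranged over 9.67-fold, the AMCA-positive ones over 1.40-fold, and the groups did not overlap. Its log2 fold change was 2.24 ± 0.50 (± SE over 5 libraries a group; adjusted p from edgeR = 0.00868).

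Levels of fosb, whose mammalian counterpart also gives a truncated protein that lacks the activating end, were 831, 656, 522, 484 and 746 CPM in AMCA-positive replicates 1 to 5. In AMCA-negative replicates 1 to 5 they were 31.8, 247, 0.245, 72.8 and 57.5 CPM, and the third of these values is a single count. The log2 fold change of fosb was 3.21 ± 0.97 (± SE over 5 libraries a group; adjusted p from edgeR = 0.0352).

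The Fos-related genes fosl1a and fosl2 are the counterparts of mammalian Fra-1 and Fra-2, which lack the strong activating end of Fos and in mammals often follow it in time. The level of fosl1a was 169, 147, 132, 135 and 147 CPM in AMCA-positive replicates 1 to 5, and 16.3, 0.220, 29.4, 64.2 and 11.0 CPM in AMCA-negative replicates 1 to 5, with a single count in AMCA-negative replicate 2. Among tested members fosl1a had the smallest spread in AMCA-positive libraries, a coefficient of variation of 10.1%, against 102% in AMCA-negative libraries. Its log2 fold change of 2.86 ± 0.92 lay just past the threshold (± SE over 5 libraries a group; adjusted p from edgeR = 0.0448).

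The calls of fosb and fosl1a were fragile. Leaving out 1 library ended the fosb call in 7 of 10 cases (AMCA-positive replicates 1, 3, 4 and 5 and AMCA-negative replicates 1, 4 and 5; edgeR adjusted p from 0.0529 to 0.0714). It ended the fosl1a call in 8 of 10 cases, all except AMCA-negative replicates 2 and 4 (edgeR adjusted p from 0.0661 to 0.0902).

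For fosl2 the levels were 1049, 816, 1067, 575 and 742 CPM in AMCA-positive replicates 1 to 5, and 464, 407, 159, 336 and 179.8 CPM in AMCA-negative replicates 1 to 5. The groups did not overlap, though the nearest libraries were close, and of the 8 genes called higher fosl2 had the smallest log2 fold change, 1.53 ± 0.29 (± SE over 5 libraries a group; adjusted p from edgeR = 0.00434), or 2.89-fold.

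The gene atf3 encodes a stress-induced factor of the ATF and CREB group that pairs with Jun proteins and acts mostly as a repressor when alone. It had 791, 809.6, 876, 566 and 634 CPM in AMCA-positive replicates 1 to 5, and 244, 7.25, 18.1, 9.60 and 53.5 CPM in AMCA-negative replicates 1 to 5. AMCA-negative replicate 1 stood well above the other AMCA-negative libraries but below all AMCA-positive ones. The log2 fold change of atf3 was 3.89 ± 0.87 (± SE over 5 libraries a group; adjusted p from edgeR = 0.00872), and it was 5.22 without AMCA-negative replicate 1 (edgeR adjusted p = 0.000875).

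Members of the Batf branch, which in mammals work with Jun and interferon regulatory factors in lymphocytes and dendritic cells, were at low levels. The level of batf3 was 23.5, 29.1, 10.6, 16.6 and 5.05 CPM in AMCA-positive replicates 1 to 5, and 34.3, 14.5, 31.1, 13.4 and 0.599 CPM in AMCA-negative replicates 1 to 5. The groups overlapped over nearly their whole range, and the log2 fold change was -0.24 ± 0.96 (± SE over 5 libraries a group; adjusted p from edgeR = 0.901). The gene batf had 1 count in each of AMCA-positive replicates 2 and 4 and none in the other libraries, so no difference was detectable at this depth.

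**Figure D2:**
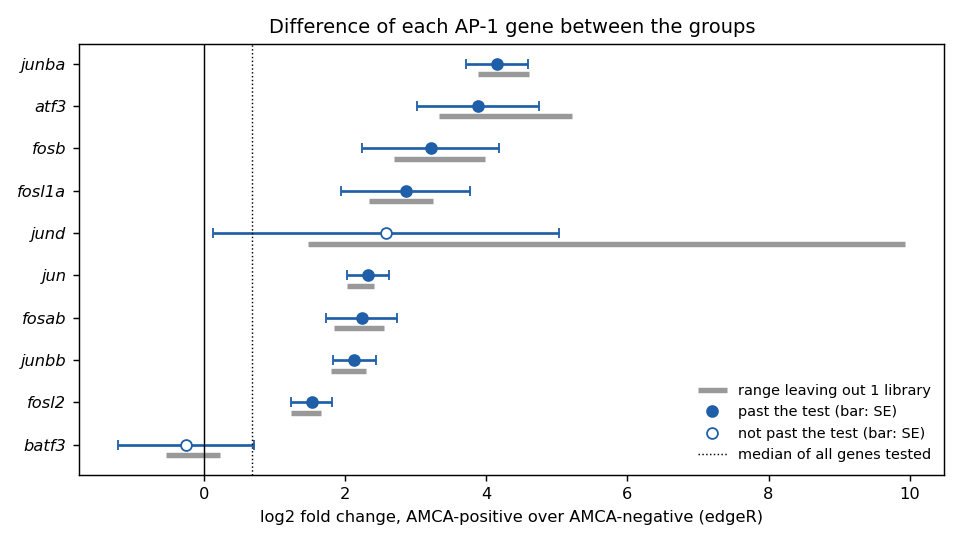
Log2 fold change of 10 AP-1 genes, AMCA-positive over AMCA-negative, with SE (horizontal bars, n = 5 per group); filled points passed the edgeR test, grey bars give the range when 1 library is left out, and the dotted line is the median of all genes tested. The 8 filled points lie between 1.53 (fosl2) and 4.15 (junba), and the range of jund extends to 9.93.

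The AMCA-negative libraries varied more in these genes. The coefficient of variation was higher in AMCA-negative libraries for 10 of the 10 members tested, as it was for 91.9% of the 10040 tested genes with counts in both groups. For jun it was 11.0% in AMCA-positive libraries against 47.4% in AMCA-negative ones, and for atf3 17.6% in AMCA-positive libraries against 152% in AMCA-negative ones. For junba it was 14.9% in AMCA-positive libraries against 52.3% in AMCA-negative ones, and for junbb 13.2% in AMCA-positive libraries against 43.6% in AMCA-negative ones. The order of the AMCA-negative libraries was not the same for every member: AMCA-negative replicate 1 was the highest of its group for atf3 and the lowest for junba. In a test of whether the group difference varied between plates no member passed (edgeR quasi-likelihood test of the interaction). The smallest unadjusted p of the interaction was 0.0560 for jund (edgeR adjusted p = 0.530), and it was 0.196 for fosl1a and 0.214 for atf3.

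The make-up of the family was then compared as each gene's share of the summed AP-1 counts of a library, a measure that does not depend on how libraries are scaled. Counts were not divided by transcript length, so a share compares groups for 1 gene and not genes with each other. Only the share of junba was higher in AMCA-positive libraries by this test, while those of junbb and fosl2 were lower, out of 10 shares tested (exact permutation test over 252 arrangements, two-sided, unadjusted p = 0.00794 for each of the 3 genes, the smallest these arrangements allow).

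The share of junba was 23.1%, 22.4%, 25.8%, 21.8% and 24.8% in AMCA-positive replicates 1 to 5, and 2.67%, 8.17%, 14.7%, 6.93% and 8.09% in AMCA-negative replicates 1 to 5. The groups did not overlap, and means were 23.6 ± 1.67% in AMCA-positive libraries and 8.11 ± 4.31% in AMCA-negative ones (SD, n = 5 each). The difference was 17.3 percentage points within plate 1 and 14.2 within plate 2. The share of junbb was 21.0% to 25.2% (mean 23.2 ± 1.91%) in AMCA-positive and 26.2% to 35.5% (mean 30.7 ± 3.80%) in AMCA-negative libraries (SD, n = 5 each). The share of fosl2 was 2.65% to 4.40% in AMCA-positive libraries and 4.49% to 16.8% in AMCA-negative libraries, so the nearest libraries of the groups were only just apart. Within plates 1 and 2 the differences were -6.27 and -8.36 percentage points for junbb, and -7.92 and -3.14 for fosl2. Without AMCA-positive replicate 4 the fosl2 share no longer passed (exact permutation p = 0.0556). With labels permuted within plates, the shares of junba, junbb and fosl2 each had an exact permutation p of 0.0167. That is the smallest p that those 120 arrangements allow.

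Shares add up to the whole, so the share of 1 gene depends on those of the others. With junba taken out of the sum, a comparison chosen after the values were seen, none of the other 9 shares passed an exact permutation test. That of junbb was then 30.4 ± 3.03% in AMCA-positive libraries against 33.6 ± 5.46% in AMCA-negative ones (SD, n = 5 each; exact permutation p = 0.310), and that of jun was 14.6 ± 1.71% in AMCA-positive libraries against 14.7 ± 4.45% in AMCA-negative ones (exact permutation p = 0.968). The share of fosl2 had an exact permutation p of 0.0556 in that sum, at 4.80 ± 1.00% in AMCA-positive libraries against 9.43 ± 5.10% in AMCA-negative ones. Its difference was -4.63 percentage points without junba and -5.05 in the full sum, over unlike totals. In the full sum it was -3.04 points without AMCA-negative replicate 1 (exact permutation p = 0.00794). Without AMCA-negative replicates 1 and 3 it was -1.96 points (exact permutation p = 0.0179). For junbb the difference was -3.20 points without junba and -7.52 in the full sum. The part of junba in these lower shares was not tested.

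In the full sum the shares of fosab (31.5 ± 3.07% in AMCA-positive libraries against 33.5 ± 11.0% in AMCA-negative ones; exact permutation p = 0.730) and jun (11.2 ± 1.41% in AMCA-positive libraries against 13.4 ± 3.56% in AMCA-negative ones; exact permutation p = 0.246) did not pass the test (SD, n = 5 each). For atf3 the share was 3.02%, 4.05%, 3.61%, 2.61% and 2.69% in AMCA-positive replicates 1 to 5, and 8.82%, 0.127%, 1.13%, 0.149% and 1.33% in AMCA-negative replicates 1 to 5. AMCA-negative replicate 1 lay above every AMCA-positive library, and the other 4 lay below them all. The difference of the means, 0.885 percentage points, did not pass (exact permutation p = 0.698), and without AMCA-negative replicate 1 it was 2.51 points (exact permutation p = 0.00794). It was -0.940 points within plate 1 and 2.1 within plate 2. The remaining shares had exact permutation p-values of 0.0635 for batf3, 0.198 for fosb, 0.802 for fosl1a and 1.00 for jund. Leaving out 1 library brought 3 of them past the threshold: fosb without AMCA-negative replicate 2 (1.87 points; exact permutation p = 0.00794), jund without AMCA-negative replicate 4 (0.0984 points; exact permutation p = 0.0159), and batf3 without AMCA-negative replicate 5 (-0.836 points; exact permutation p = 0.00794) or replicate 4 (-0.788 points; exact permutation p = 0.0476). Without AMCA-negative replicates 1 and 3 together, the fosab share difference was -8.96 points (exact permutation p = 0.0357). The 4 Jun genes together took 58.1 ± 3.54% of AP-1 counts in AMCA-positive libraries against 52.4 ± 10.6% in AMCA-negative ones, and the 4 Fos genes took 38.6 ± 3.35% in AMCA-positive libraries against 44.5 ± 10.3% in AMCA-negative ones (SD, n = 5 each).

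**Figure D3:**
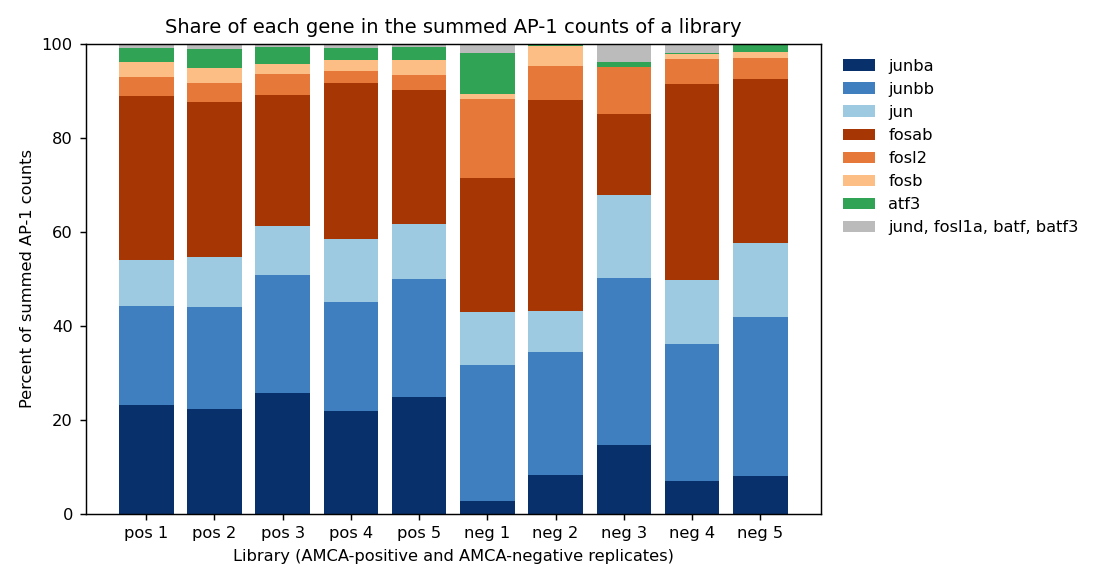
Stacked bars of the percent of summed AP-1 counts taken by each gene, 1 bar per library, AMCA-positive replicates (pos) first and AMCA-negative replicates (neg) after them. The darkest blue segment, junba, takes 21.8% to 25.8% of AMCA-positive and 2.67% to 14.7% of AMCA-negative bars.

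Within the pair of junb copies, junba gave 52.4%, 50.9%, 50.8%, 48.4% and 49.5% of the counts in AMCA-positive replicates 1 to 5. In AMCA-negative replicates 1 to 5 it gave 8.44%, 23.8%, 29.2%, 19.1% and 19.3%. All AMCA-positive libraries thus lay within a few points of each other, and every AMCA-negative library lay below all of them. Counts were not divided by transcript length, so the percentages compare the groups and not the levels of the copies. The means were 50.4 ± 1.52% in AMCA-positive libraries against 19.99 ± 7.66% in AMCA-negative ones (SD, n = 5 each), a difference of 30.4 percentage points (exact permutation test over 252 arrangements, two-sided, p = 0.00794). It was 35.5 points within plate 1 and 27.0 within plate 2. With labels permuted within plates, the exact permutation p of this difference was 0.0167, the smallest that those 120 arrangements allow. How alike the transcripts of the pair are was not examined, and reads that fit both copies could have been split or dropped in counting.

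Counts of atf3 per count of jun were 0.308, 0.377, 0.347, 0.194 and 0.232 in AMCA-positive replicates 1 to 5, and 0.786, 0.0146, 0.0642, 0.0109 and 0.0838 in AMCA-negative replicates 1 to 5, described here without a test. The share of fosb in the counts of fosab and fosb was 6.30% to 9.95% in AMCA-positive libraries against 0.0880% to 8.78% in AMCA-negative ones, which overlap through AMCA-negative replicate 2.

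**Figure D4:**
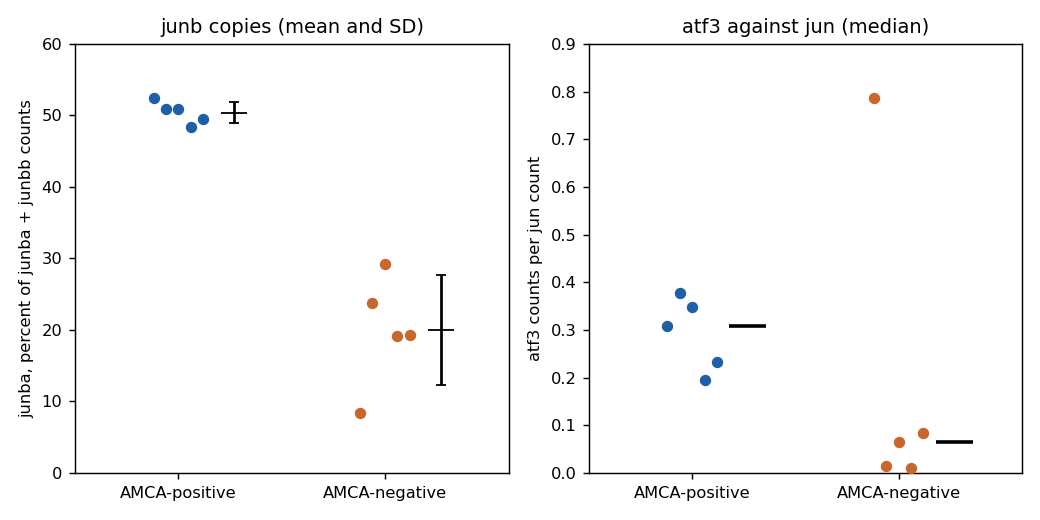
Left, junba as a percent of junba and junbb counts, with mean and SD beside the points; right, atf3 counts per jun count, with the median beside the points; each point is a library, AMCA-positive left and AMCA-negative right. The junba percent is 48.4 to 52.4 in AMCA-positive libraries against 8.44 to 29.2 in AMCA-negative ones, and 1 AMCA-negative library has the highest atf3 count per jun count, 0.786.

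Genes that work with the AP-1 proteins were examined as lists, to be read beside the 16.2% of all tested genes called higher and the 6.56% called lower. Of 12 further ATF, CREB and JDP2 genes, 2 passed as higher in AMCA-positive libraries and 1 as lower, with a median log2 fold change of 0.21 beside 0.69 for all genes tested. The higher ones were jdp2b, whose mammalian counterpart is a Jun-binding repressor, at 2413 ± 598 CPM in AMCA-positive libraries against 295 ± 101 CPM in AMCA-negative ones (SD, n = 5; edgeR adjusted p = 1.71e-05), and atf4a, a factor of the integrated stress response, at 199 ± 73.5 CPM in AMCA-positive cells against 83.0 ± 51.7 CPM in AMCA-negative cells, which overlap (edgeR adjusted p = 0.0275). The lower one was atf7ip, which encodes an ATF7-binding chromatin protein and not a bZIP factor, at 42.4 ± 14.3 CPM in AMCA-positive cells against 152 ± 43.3 CPM in AMCA-negative cells (edgeR adjusted p = 0.00611).

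Of 18 Maf, Nrf, Bach and C/EBP genes tested, 6 were higher and 2 lower (16.2% and 6.56% of all genes), with a median log2 fold change of 1.48. Among those with the smallest p were cebpa, a factor of myeloid and fat cell differentiation, at 426 ± 283 CPM in AMCA-positive libraries with 2 counts in all AMCA-negative libraries together (edgeR adjusted p = 4.60e-06), and cebpd, an acute-phase factor. Levels of cebpd were 917 ± 261 CPM in AMCA-positive libraries against 71.0 ± 42.1 CPM in AMCA-negative ones (SD, n = 5 each; edgeR adjusted p = 0.00109). The summed leukocyte markers given above were likewise higher in AMCA-positive libraries. The part of leukocytes in the levels of these genes was not tested.

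Of 21 kinases that act on Jun and Fos, 2 were higher and none lower (16.2% and 6.56% of all genes). Their median log2 fold change was 0.73, close to that of all genes. They were mapk8a, a Jun N-terminal kinase gene with 120 AMCA-positive counts and 1 AMCA-negative count (edgeR adjusted p = 0.00995), and mapk11, a p38 kinase gene at 189 ± 46.9 CPM in AMCA-positive libraries against 9.43 ± 19.6 CPM in AMCA-negative ones (SD, n = 5; edgeR adjusted p = 0.0398). Among 5 regulators upstream, 1 was higher and 0 lower, with a median log2 fold change of 2.19 beside 0.69 for all genes tested. Of the 17 entries of this list 11 were not found. The higher one was srfa, a copy of the serum response factor gene, with 103 AMCA-positive and 3 AMCA-negative counts (edgeR adjusted p = 0.0450). Its levels overlapped between the groups. The genes srfa and srfb are also on the list of other immediate early genes below, so the lists are not separate.

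Dual specificity phosphatases switch MAP kinases off, and several are themselves induced by the pathway. Of 8 tested, 2 were higher and 1 lower (16.2% and 6.56% of all genes), with a median log2 fold change of 1.29. The gene dusp4 had 330 AMCA-positive counts and no AMCA-negative count (edgeR adjusted p = 0.00753), and dusp5 was at 391 ± 77.8 CPM in AMCA-positive libraries against 123 ± 81.4 CPM in AMCA-negative ones (edgeR adjusted p = 0.0315). In the other direction, dusp2 was at 419 ± 102 CPM in AMCA-positive libraries against 1176 ± 449 CPM in AMCA-negative ones (SD, n = 5; edgeR adjusted p = 0.00431), with no overlap between the groups.

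Other immediate early genes were mixed: 13 of 37 tested were higher, 3 were lower (16.2% and 6.56% of all genes) and 21 did not pass, with a median log2 fold change of 1.38. The stress-response gene gadd45ba was at 2100.3 ± 359 CPM in AMCA-positive libraries against 367 ± 162 CPM in AMCA-negative ones (edgeR adjusted p = 0.000227). The gene ier5l was at 38.8 ± 16.3 CPM in AMCA-positive cells against 0.194 ± 0.230 CPM in AMCA-negative cells (edgeR adjusted p = 0.00216). The survival gene mcl1a was lower, at 2217 ± 474 CPM in AMCA-positive libraries against 5555 ± 687 CPM in AMCA-negative ones (SD, n = 5; edgeR adjusted p = 0.000388). Summed, the 41 genes of the list found in the table took 2.08% to 3.01% of AMCA-positive and 0.903% to 1.48% of AMCA-negative counts, a ratio of means of 2.17, beside 7.78 for the AP-1 sum on the same scale. The difference between these ratios was not tested.

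Of 22 heat shock genes, 6 were higher and none lower (16.2% and 6.56% of all genes), with a median log2 fold change of 1.11. Among them were hspd1 (116 ± 19.7 CPM in AMCA-positive libraries against 18.3 ± 14.7 CPM in AMCA-negative ones; edgeR adjusted p = 0.00486), hspb8 (15.3 ± 6.09 CPM in AMCA-positive cells against 0.215 ± 0.225 CPM in AMCA-negative cells; edgeR adjusted p = 0.00622) and the inducible chaperone gene hsp70l (2789 ± 699.5 CPM in AMCA-positive cells against 776 ± 476 CPM in AMCA-negative cells; edgeR adjusted p = 0.00685; SD, n = 5 each). Heat shock genes took 1.40% to 2.18% of AMCA-positive and 0.335% to 0.969% of AMCA-negative counts. The part of cell handling in the levels of AP-1, heat shock and other immediate early genes was not tested.

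Of 23 genes known as AP-1 targets in mammals, 14 were higher and 1 lower (16.2% and 6.56% of all genes). Their median log2 fold change was 4.07, beside 0.69 for all genes tested. The 3 with the smallest p were mmp14b, a membrane-bound matrix metalloproteinase gene (178 ± 76.9 CPM in AMCA-positive libraries and 2 counts in all AMCA-negative ones; edgeR adjusted p = 1.39e-05), vim, the vimentin gene (200.3 ± 57.4 CPM in AMCA-positive cells against 0.473 ± 0.397 CPM in AMCA-negative cells; edgeR adjusted p = 1.41e-05), and ptgs2a, a prostaglandin synthase gene (143 ± 97.0 CPM in AMCA-positive libraries and 2 counts in all AMCA-negative ones; edgeR adjusted p = 7.70e-05; SD, n = 5). The gene vim is also on the list of astroglial markers, of which 17 of 20 tested were higher. So were 13 of 20 leukocyte markers, with 1 lower, and 9 of 12 markers of mural cells and fibroblasts. The part of these markers in the target levels was not tested. Also higher were 6 of 10 epithelial, 4 of 10 endothelial and 4 of 13 endocrine markers, while 0 of 8 neuronal markers passed by edgeR (0 at an unadjusted p under 0.05) and 16 of 16 red cell markers were lower. The marker counts too are to be read beside the 16.2% of all genes called higher and the 6.56% called lower.

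**Figure D5:**
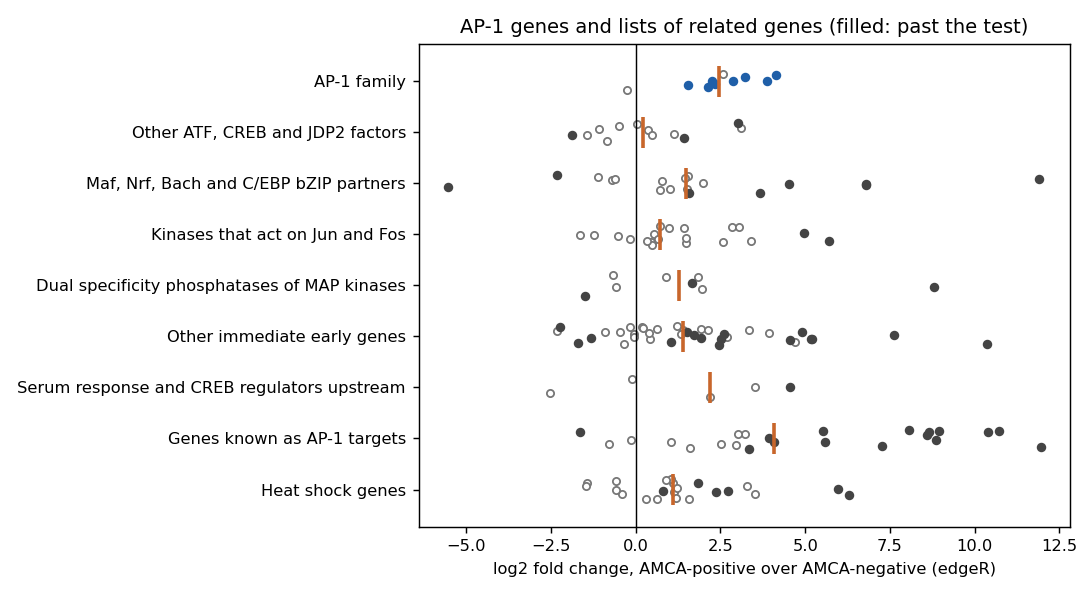
Log2 fold changes (AMCA-positive over AMCA-negative) of the 10 tested AP-1 genes and of the genes in 8 lists of related genes; each point is a gene, filled where it passed the edgeR test, and orange lines are list medians. The median is 2.45 for the AP-1 genes, 1.38 for other immediate early genes and 4.07 for genes known as AP-1 targets.

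The genes with the most similar profile over the 10 libraries were found from the root mean square difference of log2 CPM, each gene centred on its own mean, among 9378 genes outside the family. Genes with a clone name were left out of these 9378. For jun the nearest were gadd45ba (0.211 log2 units) and the dynactin gene dctn4 (0.291), where the median gene was at 1.77. Within the family, jun and junbb differed by only 0.207, jun and junba by 1.1, and junba and junbb by 1.18. For junbb the nearest outside the family were the tubulin gene tubb4b (0.261) and gadd45ba (0.278), and for fosab the epithelial adhesion gene epcam (0.431) and npm1a (0.449). The nearest to junba were cebpd (0.498) and the syndecan gene sdc4 (0.545), and to atf3 syt11a (0.728) and tmem223 (0.769). These distances describe likeness in these libraries, which share the group difference.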

How the data were processed

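The authors deposited raw counts per gene, whole numbers in 10 libraries, per the file headers. The deposited normalized signal is that count over a size factor of the library and was used only to check this. The deposited log2 fold changes and p-value columns of the authors were used for 1 count of calls. Tools listed in the submitters' processing notes, with no role or order, are TopHat2 2.0.13, cutadapt, HTSeq and DESeq2, and the build is danRer10. Annotation and strand setting: not given in the sources used here. Libraries were amplified for 15 cycles without molecular identifiers, so floors of 3 counts cover counting error only. RefSeq gene models (GRCz12tu) show another gene overlapping fosab, fosl2, junbb and batf, whose counts are uncertain where reads were shared.

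Groups came from the dye labels. The labels name 5 pools but not which library came from which, so libraries were not paired in the main tests, and p-values measure the spread between these libraries. An alternative edgeR fit took neighbouring wells as a block, and the share tests were not run with that block. Counts were fitted across all genes with edgeR 4.0.16 in R 4.3.3 (TMM, filterByExpr on the design, robust quasi-likelihood, plate plus group); SE is the error implied by the F test. Shares were tested with exact permutations, unadjusted for the 10 tested. Alternatives used DESeq2 1.42.0, limma 3.58.1, other filters, scalings and members, single plates and left-out libraries. The fit was tested on simulated data with the same spread for all genes in both groups. The real libraries differ in this, so that test checks the code only. Members and lists were chosen with earlier results of these data known. Named genes are all members, the 3 smallest adjusted p of each related list among genes past the test, and the 2 nearest profiles of 5 members. One gene that this rule names is not reported here. Of 352 list entries in 16 lists, 10 were matched by synonym and 59 were not matched.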

Additional observations from a re-analysis of the deposited data

Results flagged for a closer look

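In 44 sets of 5 libraries, 1 library stood far from the other 4 in 5 cases, by the ratio of its gap to the range (95% level of Dixon's test, at which chance alone gives about 1 in 20). In AMCA-positive replicate 1, fosab was at 9178 CPM and the next AMCA-positive library at 7194. In AMCA-negative replicate 1, atf3 was at 244 CPM and the next AMCA-negative library at 53.5, and its share of AP-1 counts was 8.82% with the next at 1.33%. In AMCA-negative replicate 4, jund was at 45.9 CPM and 0.713% of AP-1 counts, with no count in the other AMCA-negative libraries. Its ratio of gap to range is therefore fixed at 1. The level and the share of a gene come from the same counts, so the 5 cases are not independent.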

How the results depend on the processing

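The labels do not say which libraries share a pool, but each AMCA-positive well is next to an AMCA-negative well of its plate. Deviations of neighbours from their group means correlated weakly across genes (r from 0.00538 to 0.0353). The neighbour was the closest library in 2 of 5 cases. The groups hold unlike cells, so these values cannot show whether neighbours share a pool. With the neighbouring wells as a replicate block in place of plate, chosen after seeing the data, 8 members were called higher, 1324 genes higher and 438 lower, and the log2 fold change of batf3 was 0.38, not past the test. With all libraries 8 members were higher; the number was 0 with plate 1 alone, 5 with plate 2 alone, and 6 to 8 without 1 library. No member was called lower in any setting. Over all genes, 1693 were higher and 687 lower; 2917 were higher by the DESeq2 Wald test, 676 with at least 10 CPM in 5 libraries, and 29 higher and 34 lower with plate 1 alone, and leaving out 1 library gave 1273 to 1744 higher and 488 to 749 lower. The log2 fold change of batf3 turned to 0.58 by limma-voom with quality weights, 0.23 without AMCA-negative replicate 3 (-0.53 to 0.23 over libraries left out) and 0.62 without AMCA-negative replicates 1 and 3, none past the test. The fosb call was also lost with no filter (edgeR adjusted p = 0.0537), and that of fosl1a with at least 10 CPM in 5 libraries (0.0664), with no plate term (0.0563) and without AMCA-negative replicates 1 and 3 (0.138). By limma-voom jund passed, with a log2 fold change of 5.65 (adjusted p = 0.0157). The atf3 share difference ran from 0.338 to 2.51 percentage points without 1 library and was 2.66 without AMCA-negative replicates 1 and 3, which was chosen after seeing the data. In the family sum without junba that of junbb was -3.20. The fosab share difference turned to 4.96 in that sum and ran from -5.97 to 0.952 without 1 library, and was -8.96 (exact permutation p = 0.0357) without AMCA-negative replicates 1 and 3. That of fosl1a turned to 0.00313 without junba, 0.209 without AMCA-negative replicates 1 and 3, 0.0320 as medians and 1.08 as log2 ratios (-0.290 to 0.168 without 1 library). That of jund turned to 0.112 as medians and 2.35 as log2 ratios (-0.0797 to 0.0984 without 1 library). The fosl2 share had an exact permutation p of 0.0556 without AMCA-positive replicate 4. The cause of these changes was not tested. The junba share of the family, the junba share of the pair and the summed level kept their direction in every setting run, and both shares kept their side of the threshold where tested. Depth limits batf, jund and single counts of fosb and fosl1a.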
